A study of Mus musculus with 2 samples.

Results

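The genes of the MHC class I presentation route followed here in single CD4 T cells are B2m, H2-K1, H2-D1, H2-T23, Tap1, Tap2 and Tapbp. They were chosen by name, and all 7 had a row among the 12432 genes of the deposited table. The T cells recognized the 2W1S peptide and had been FACS-purified from the peripheral lymph nodes and spleen of C57BL/6 mice colonized with Candida albicans engineered to express 2W1S. All cells belonged to 1 group, so there is no uncolonized control, and they came as a March and an April capture prepared with the SMART-Seq v4 kit on a Fluidigm C1. The March capture held 82 cells in the runs Mar1 (25 cells) and Mar17 (57 cells), and the April capture held 96 cells in the runs Apr13 and Apr21 (48 cells each). The labels do not state how many mice were pooled, their age or their sex. A p-value here sets a difference between classes of cells against its variation between 2 captures, with variance borrowed from other genes. It reflects nothing wider, and that variation may be technical.

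Class I molecules display peptides from inside a cell to CD8 T cells and NK cells, and nearly all nucleated cells carry them. A class I molecule is a heavy chain held together with beta-2 microglobulin. Peptides reach it in the endoplasmic reticulum through the TAP transporter, with tapasin as the bridge between transporter and empty heavy chain. Interferons raise these genes, in part through IRF1, and NLRC5 drives them in lymphocytes. The 2W1S peptide by which the cells were sorted is itself seen on MHC class II, so the class I genes are here a property of the responding T cell and not of its antigen. B2m encodes the light chain. H2-K1 and H2-D1 encode the classical heavy chains, and H2-T23 encodes the heavy chain of the nonclassical molecule Qa-1. Tap1 and Tap2 encode the transporter subunits, and Tapbp encodes tapasin.

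In mm10 with GENCODE vM21, B2m lay alone on the plus strand at chr2:122147686-122153083. The other 6 genes lay in the MHC on chromosome 17. From one end to the other these were Tapbp at chr17:33915899-33929292 on the plus strand, H2-K1 at chr17:33996017-34000347 on the minus strand, Tap1 at chr17:34187553-34197225 and Tap2 at chr17:34203527-34216321 on the plus strand, H2-D1 at chr17:35262730-35267499 on the plus strand, and H2-T23 at chr17:36029773-36032855 on the minus strand.

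The promoters of the light chain and the 3 heavy chains are shown because these 4 genes gave most of the class I signal. Each is the 250 bases before the RefSeq start, 5′ to 3′ on the gene's own strand, from the RefSeq promoter table of GRCm38.p6. Capitals mark 4 motifs searched on both strands: the core of an interferon-stimulated response element, which is GAAA repeated after a gap of 2 bases, GGGATTC, from the kappa B element of the class I enhancer, TGACG, the core of the X2 box, and CCAAT, which reads ATTGG on the other strand and belongs to the Y box. The windows are chr2:122147437-122147686 for B2m, chr17:34000348-34000597 for H2-K1, chr17:35262844-35263093 for H2-D1 and chr17:36032702-36032951 for H2-T23.
B2m: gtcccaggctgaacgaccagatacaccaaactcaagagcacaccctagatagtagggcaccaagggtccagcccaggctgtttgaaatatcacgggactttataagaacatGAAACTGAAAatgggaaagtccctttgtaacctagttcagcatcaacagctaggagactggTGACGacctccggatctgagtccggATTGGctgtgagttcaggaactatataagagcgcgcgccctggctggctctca
H2-K1: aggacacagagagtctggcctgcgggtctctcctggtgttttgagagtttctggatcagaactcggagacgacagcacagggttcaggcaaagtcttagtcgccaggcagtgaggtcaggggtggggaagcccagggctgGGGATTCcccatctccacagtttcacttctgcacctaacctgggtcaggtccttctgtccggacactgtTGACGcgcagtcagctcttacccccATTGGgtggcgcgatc
H2-D1: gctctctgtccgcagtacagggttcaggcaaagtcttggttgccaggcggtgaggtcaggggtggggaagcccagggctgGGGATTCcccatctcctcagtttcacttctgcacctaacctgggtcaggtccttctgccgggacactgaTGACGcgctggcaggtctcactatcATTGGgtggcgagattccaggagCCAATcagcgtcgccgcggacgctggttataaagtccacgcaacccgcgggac
H2-T23: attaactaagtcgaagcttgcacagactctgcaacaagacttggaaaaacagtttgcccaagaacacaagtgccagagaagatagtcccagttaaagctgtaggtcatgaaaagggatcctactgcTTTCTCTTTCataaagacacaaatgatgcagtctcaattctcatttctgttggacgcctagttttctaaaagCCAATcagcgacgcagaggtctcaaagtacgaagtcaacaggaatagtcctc
The promoter table held 6 of the 7 members, with Tap2 not among them. The interferon motif was found in 2 of these 6, in B2m at positions -139 to -130 before the start and in H2-T23 on the reverse strand at -124 to -115, and in 2.98% of all 32851 promoters of the same length. The kappa B motif was found in 2 of 6, H2-K1 and H2-D1, against 2.54% of all promoters. TGACG was found in 4 of 6 (all but H2-T23 and Tapbp) against 17.8%, and CCAAT in all 6 against 33.8%. The searched motifs overlapped nowhere in these windows, and a match or its absence is a description of letters only. Only these exact spellings were searched, so a window without a match can still hold a variant spelling of the same element.

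No header states the unit. The values fit log2(x + 1) with x a TPM-like quantity, and x, the back-transformed number, is called the linear value here. A gene with x of 1 or more in a cell is said to have clear signal there, and one with x above 0 to be detected. The linear values summed to between 892206 and 979888 per cell, a nearly fixed total, so the sequencing depth behind a value is unknown. A reading of the values as scaled by gene length was looked at in 7125 genes. Spearman rho between transcript length and a gene's smallest nonzero value was -0.356. With a gene's mean linear value it was -0.366, so higher values of shorter genes would give the same result. The check therefore cannot decide whether values were scaled by length. Levels of different genes are compared on that reading, which remains an assumption. Cells had a median of 4859 to 5491 detected genes in the 4 runs. In Mar1, 3 cells had 65.8% to 93.9% of their linear signal in mitochondrial genes, against run medians of 7.20% to 8.99%. These 3 cells were kept, and results that move without them are given both ways. All 8 CD4 T cell markers on the marker list had clear signal in most cells, while the 2 CD8 T cell markers had it in a median of 13.2% of cells. The B cell markers, 3 of 8 in the table, had clear signal in a median of 61.8% of cells at a median summed linear level of 5.62. The myeloid markers, 3 of 10 in the table, had it in 39.3% at 2.81. The median summed level of the CD4 T cell markers was 7441. Markers of class II presenting cells had clear signal in a median of 12.1% of cells and NK cell markers in 5.9%. The highest summed level in a single cell was 4866 for B cell, 26203 for class II and 2404 for myeloid markers. It was 1654 for CD8 T cell and 1596 for NK cell markers. Some cells thus carried strong signal of other cell types, and whether these were doublets was not tested.

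B2m was the highest member and among the highest genes of these cells, ranking 13 of 12432 by mean. Its log2 value was 11.71 ± 1.51 in March and 12.20 ± 0.82 in April (mean ± SD over 82 and 96 cells), and it ran over all cells between 7.03 and 14.22 with a median of 12.16. It had clear signal in every cell. The SD of 1.21 over all cells was close to that of Actb, a cytoskeletal gene, at 1.16. Among the 143 genes with a mean of at least 8, B2m ranked 138 by SD, where 1 is the widest, and the median SD of those genes was 2.41. B2m was therefore both abundant and among the least variable abundant genes, with a wider spread in March.

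H2-D1 and H2-K1 also had clear signal in all 178 cells. H2-D1 was at 10.02 ± 2.29 in March and 10.69 ± 1.64 in April, and over all cells its lowest, median and highest log2 values were 3.02, 10.92 and 13.38. H2-K1 was at 9.70 ± 2.82 in March and 10.16 ± 2.24 in April, with 1.91, 10.73 and 13.93. These are means ± SD over the same 82 and 96 cells. By mean they ranked 34 (H2-D1) and 52 (H2-K1) of 12432. Their low tails reached further below the median than that of B2m. The 5th percentile was 4.31 for H2-K1 and 6.52 for H2-D1, against 9.46 for B2m, which was itself at 8.41 in March. In counts, 33 cells (18.5%) were below a log2 value of 8 for H2-K1 and 20 (11.2%) for H2-D1, against 2 cells for B2m. The tails met in 8 cells (4.49%), against a product of the separate shares of 2.08% over all cells. Of these 8 cells, 7 were in March, 8.54% of its cells against a product of 4.02%. In April the share was 1.04% against a product of 0.81%. One of these 8 was a cell of high mitochondrial share. In cells below 8 for H2-K1, median H2-D1 was 9.38 in March and 11.07 in April, against 11.02 in March and 10.94 in April in the other cells. Median H2-D1 was thus lower in the cells with low H2-K1 in March and not in April, and the difference between captures was not tested.

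H2-T23 stood in the middle, at 6.68 ± 2.97 in March and 6.92 ± 3.06 in April. It was detected in 174 of 178 cells (97.8%, exact Clopper-Pearson 95% interval 94.3% to 99.4%, counting error only), and 128 cells (71.9%) were at a log2 value of 5 or more. Its lowest, median and highest values were 0, 7.21 and 11.96. With an SD of 3.01 over all cells, against 1.21 for B2m, this gene spread cells far more widely.

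The peptide-loading genes were lower and patchier. Tapbp was at 4.30 ± 3.28 in March and 4.71 ± 3.34 in April, ran between 0 and 11.22 over all cells, and had clear signal in 145 of 178 cells. Tap1 was at 1.89 ± 2.61 in March and 2.27 ± 2.86 in April, with a range of 0 to 10.09, and had clear signal in 95 cells (53.4%). Tap2 was at 0.89 ± 2.16 in March and 1.27 ± 2.42 in April, with a range of 0 to 10.58, and had clear signal in 38 cells. Most cells thus had little Tap1 or Tap2 signal while a few had a great deal: 27 cells (15.2%) were at a log2 value of 5 or more for Tap1 and 16 (8.99%) for Tap2, against 83 (46.6%) for Tapbp. The transporter works only as a pair of its subunits. Tap2 had clear signal in 22 of 95 cells with clear Tap1 signal (23.2%, exact 95% interval 15.1% to 32.9%) and in 16 of 83 cells without it (19.3%, 11.4% to 29.4%), and 67 cells had neither. Of the 38 cells with clear Tap2 signal, 22 thus also had clear Tap1 signal. The intervals overlap, but they pool cells of 4 runs and hold counting error only. Runs went both ways: Tap2 shares with and without clear Tap1 signal were 44.8% and 21.1% in Apr13 and 18.5% and 16.7% in Mar17. They were 14.8% and 23.8% in Apr21 and 0% and 15.4% in Mar1. Absence of signal in 1 cell does not show absence of the transcript.

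Ordered by mean log2 value over all cells, the members ran B2m (11.98), H2-D1 (10.38), H2-K1 (9.95), H2-T23 (6.81), Tapbp (4.52), Tap1 (2.10) and Tap2 (1.09). This order was the same in March and in April. The neighbours H2-D1 and H2-K1 lay closer together than the cell-to-cell SD of either, and in Mar1 H2-K1 was the higher, at 10.12 against 9.76 for H2-D1. Within single cells log2 H2-K1 minus log2 H2-D1 had a median of -0.22 and ran from -8.55 to 8.11 (SD 2.76), so either heavy chain could be the main one. Runs differed little beside this spread: the share of variance that lay between runs was 1.23% (H2-T23) to 5.04% (B2m). Without the 3 cells of high mitochondrial share the Mar1 means were 11.78 for B2m and 10.31 for H2-D1, against 11.46 and 9.76 with them.

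**Figure D1:**
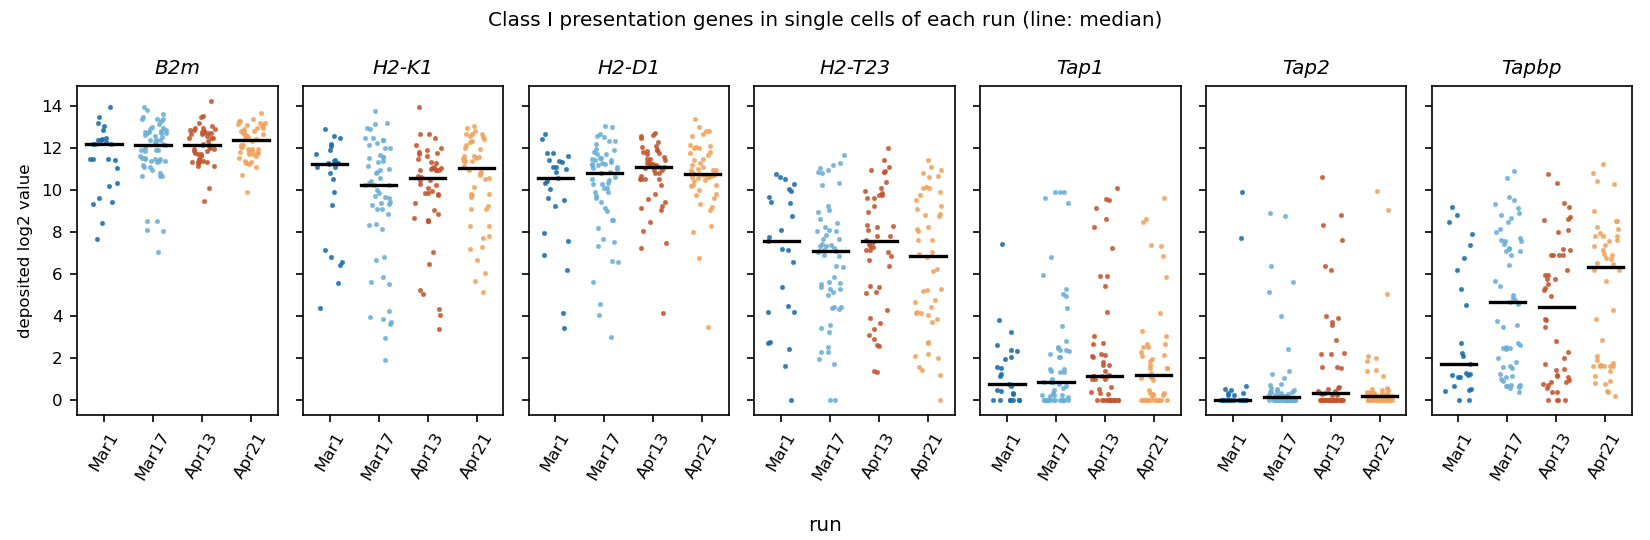
Deposited log2 values (vertical axis) of the 7 members in single cells of the 4 runs (horizontal axis), 1 panel per gene, with 1 point per cell and a line at the median of the run. Most B2m values lie near 12, H2-K1 and H2-D1 have longer low tails, and Tap1 and Tap2 are near 0 in most cells with a few cells above 5.

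Together the 7 genes made up a median of 1.09% of a cell's linear signal (0.0174% to 3.05%), of which B2m alone gave 0.481%. Light and heavy chains were close to balance: log2 of B2m minus log2 of the summed H2-K1, H2-D1 and H2-T23 had a median of 0.11 over the 178 cells, although single cells ran from -4.66 to 5.10. Tap1, Tap2 and Tapbp together gave a median of 0.846% of the members' signal. The members' signal was thus almost all from light and heavy chains and very little from the loading machinery.

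Co-expression between members was weak. Over the 21 pairs, the median Spearman rho over cells was 0.09 in March (n = 82, -0.09 to 0.33) and -0.03 in April (n = 96, -0.17 to 0.20); cells of a capture share its library preparation and fixed total, and no p is given for these values. Only 3 pairs were above 0 in all 4 runs: H2-K1 with H2-D1 (0.33 in March, 0.14 in April), H2-D1 with H2-T23 (0.29 and 0.20) and B2m with H2-K1 (0.15 and 0.19). All 3 join a chain to a chain, and the heavy-chain genes share sequence, as described below. The share of all gene pairs above 0 in all 4 runs was not counted. The pair of B2m with H2-D1 changed sign, at 0.32 in March and -0.17 in April, and without the 3 cells of high mitochondrial share the March value was 0.25. Tap1 with Tap2 was at 0.03 in March and 0.19 in April. H2-T23 was below 0 with both Tap1 and Tap2 in all 4 runs, with values of -0.20 to -0.03.

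**Figure D2:**
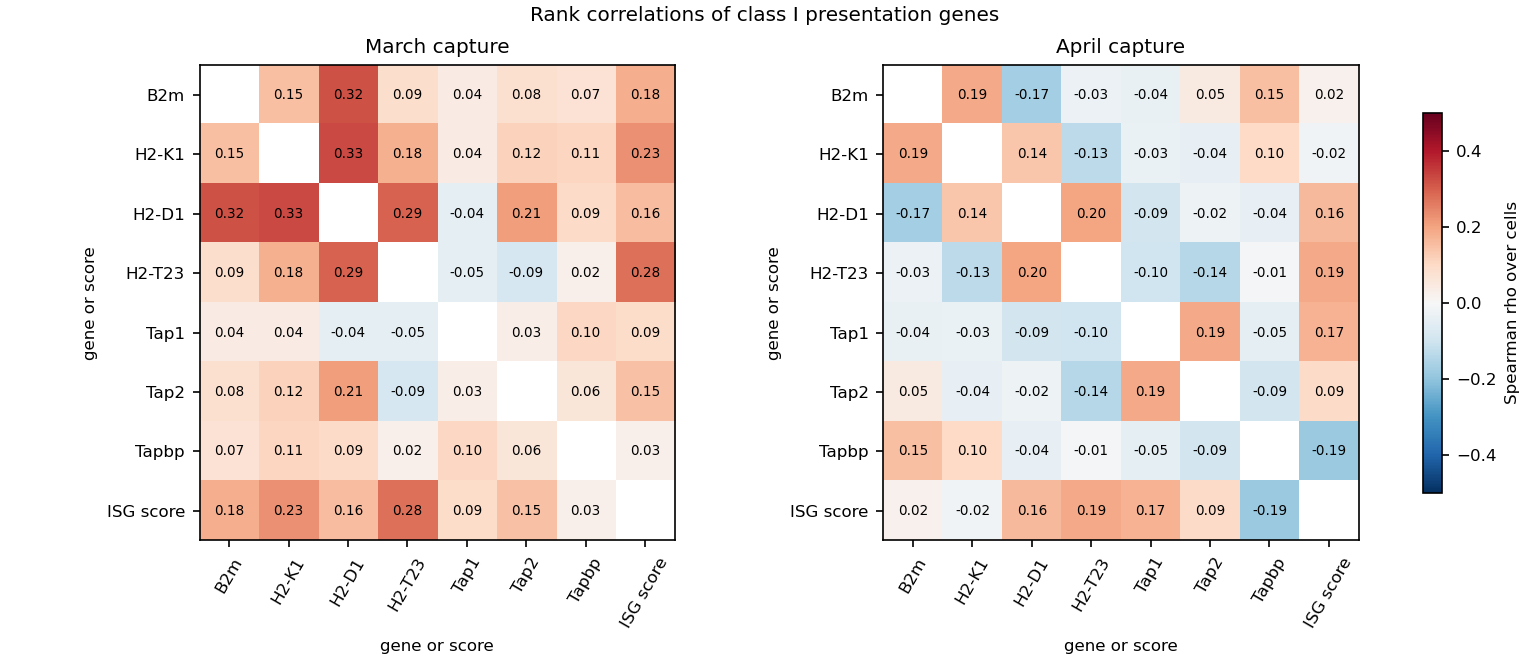
Spearman rho over cells between each pair of members and with the interferon score (rows and columns are genes or the score), in the March capture (left, 82 cells) and the April capture (right, 96 cells). Most values are near 0, and the highest pair of members, H2-K1 with H2-D1 in March, is at 0.33.

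The gene most like H2-K1 over cells was another class I heavy-chain gene, H2-Q10, with a mean rho over both captures of 0.524 among 6911 genes with a value above 0 in 25% of cells or more (0.544 in Mar1, 0.500 in Mar17, 0.417 in Apr13 and 0.687 in Apr21). The next were Slc7a2 (0.384), a cationic amino acid transporter, and Plxna4os1 (0.384), an antisense transcript. H2-D1 was most like H2-Q7 (0.290), which encodes a Qa-2 heavy chain, then ENSMUSG00000079724 (0.281) and Thap3 (0.266). B2m was most like Amd2 (0.303), an adenosylmethionine decarboxylase gene, Gm15427 (0.299) and Shisa5 (0.292). The class I score, the mean of within-capture z values of all 7 members, was most like H2-Q10 (0.294), Pnrc2 (0.284), U2af1l4 (0.264), Ccdc6 (0.260) and Ly6e (0.257), an interferon-stimulated gene of the Ly6 family; over all 6905 genes the median rho with it was 0.0178. Of the proteasome genes of the class I route, Psme2 ranked 33, Psmb8 1680, Psme1 2101 and Psmb10 3104, and Nlrc5 and Irf1, regulators of these genes, ranked 4829 and 5311.

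Class I heavy chains are near-copies of each other, and how the authors assigned reads that fit several of them is not given in the sources used here, so values of H2-K1, H2-D1, H2-T23 and their relatives are uncertain to that extent. Of the runs of 50 bases in the longest coding transcript of GENCODE vM21, 8.79% in H2-K1, 14.3% in H2-D1 and 28.8% in H2-T23 also occur in another gene, against 0% in B2m, 0.861% in Tap1, 0.737% in Tap2 and 2.00% in Tapbp. H2-K1 shares 2.11% of the runs of H2-Q10. In the 79 cells with H2-Q10 at 4 or more and H2-K1 at 9 or more, the log2 value of H2-K1 lay a median of 4.48 above that of H2-Q10 (SD 1.10, rho 0.638). For H2-D1 over H2-Q7 in 64 such cells the median was 4.41, with a wider SD of 2.07 and a rho of 0.119. These limits were chosen after the values were seen. The distance of H2-Q10 below H2-K1 thus varied less than that of H2-Q7 below H2-D1 in cells that had both, but 75 of 178 cells had H2-Q10 below 2. Whether shared reads gave the H2-Q10 signal was not tested.

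**Figure D3:**
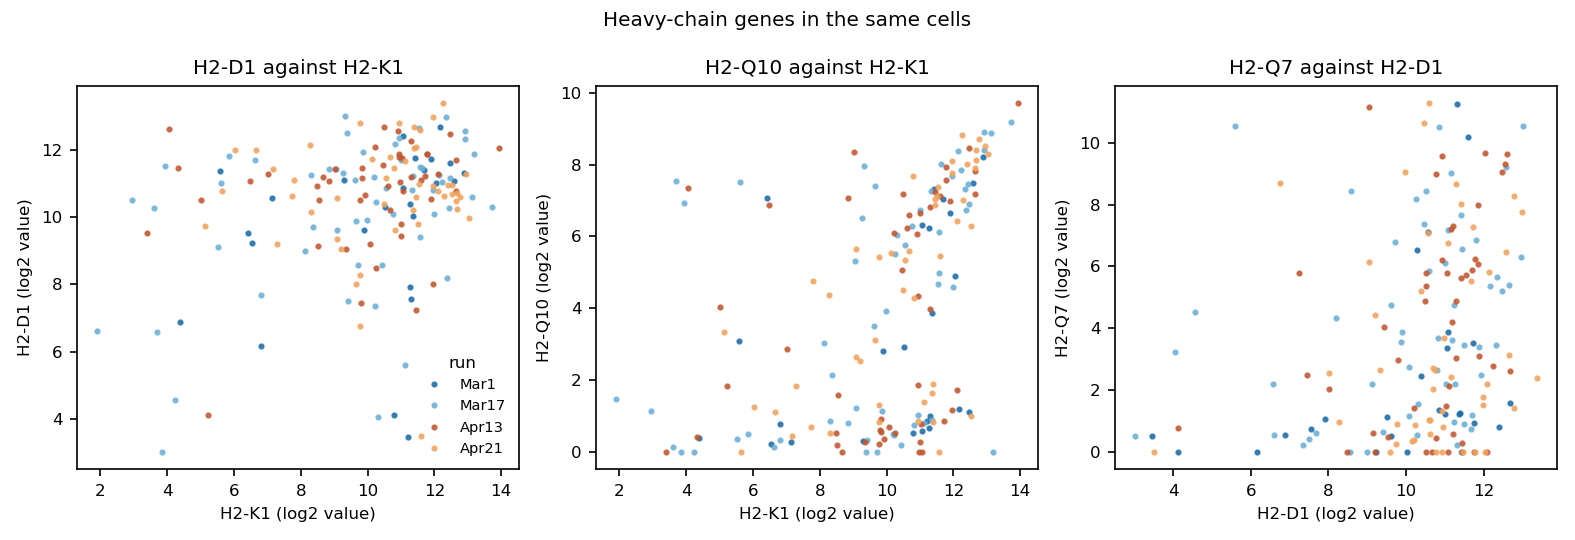
Log2 values of heavy-chain genes in the same cells, 1 point per cell, coloured by run, with the gene on each axis named in the panel. H2-Q10 runs parallel to H2-K1 in the upper cells, a median of 4.48 below it, while H2-K1 and H2-D1 scatter widely around each other.

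Members were next set beside interferon-stimulated genes. Each cell was given a score, the mean within-capture z value of 52 type I interferon-stimulated genes such as Isg15, Ifit1 and Oas3, with no member among them. Spearman rho with this score was 0.28 in March and 0.19 in April for H2-T23 (82 and 96 cells that share library preparation and a nearly fixed total), and 0.16 in March and 0.16 in April for H2-D1. The values were 0.18 and 0.02 for B2m, 0.23 and -0.02 for H2-K1, 0.09 and 0.17 for Tap1, 0.15 and 0.09 for Tap2, and 0.03 and -0.19 for Tapbp, March first. By the mean of both captures H2-T23 ranked 123 of 6873 genes, with 1.78% of genes higher, whereas the median over all these genes was 0.0526 and the values of the middle 90% ran from -0.0809 to 0.193. How many of all genes were above 0 in all 4 runs was not counted. Of the members, H2-T23, H2-D1 and Tap2 were above 0 in all 4 runs. For H2-D1 this rested on the 3 cells of high mitochondrial share, since without them rho was -0.29 in Mar1 and 0.07 in March. For H2-T23 it was 0.38 in Mar1 and 0.20 in March without them. The score itself correlated with the number of genes detected, at 0.20 in March and 0.26 in April. A partial rank correlation given that number, over all cells, was 0.26 in March and 0.19 in April for H2-T23. For H2-D1 it was 0.14 in March and 0.18 in April. Any further part of detection in these values was not tested.

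To compare captures instead of cells, the cells of each capture were split at its median score into ISG-high and ISG-low cells (41 and 41 in March, 48 and 48 in April), averaged, and fitted with limma over all genes with the capture as a block. H2-T23 averaged 7.31 in ISG-high and 6.06 in ISG-low cells of March, and 7.46 in ISG-high and 6.38 in ISG-low cells of April. Within each class the cells spread far wider than this: in March ISG-high cells ran from 1.95 through a median of 7.31 to 11.63, and ISG-low cells from 0 through 6.89 to 11.18. In April ISG-high cells ran from 0 through 7.71 to 11.96 and ISG-low cells from 1.18 through 6.89 to 11.40. The classes overlapped almost wholly, but the mean was higher in ISG-high cells in 4 of 4 runs, by 2.73 in Mar1, 0.65 in Mar17, 0.86 in Apr13 and 1.19 in Apr21. How many of all genes did so was not counted. The ISG-low cells of Mar1 included the 3 cells of high mitochondrial share, with H2-T23 at 0, 2.77 and 1.61. The fitted difference was 1.17 ± 0.45 (SE, 95% interval 0.20 to 2.14, n = 2 captures), with an unadjusted p = 0.0217 and an adjusted p = 0.793 in limma, so it did not pass. Without the 3 cells of high mitochondrial share, all of them ISG-low, it was 0.99, and without the run Mar1 0.86.

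The next by p was H2-D1. It averaged 10.47 in ISG-high and 9.56 in ISG-low cells of March, and 11.05 in ISG-high and 10.33 in ISG-low cells of April. The April cells differed mainly at the low end, where ISG-high cells ran from 8.49 through a median of 11.05 to 13.38 and ISG-low cells from 3.49 through 10.93 to 12.98. The mean was higher in ISG-high cells in 4 of 4 runs, by 0.64 to 1.19, and how many of all genes did so was not counted. The 1.19 was in Mar1, whose ISG-low cells included the 3 cells of high mitochondrial share, with H2-D1 at 3.45, 7.56 and 6.16. The fitted difference was 0.82 ± 0.33 (SE, 95% interval 0.11 to 1.52, n = 2 captures), with an unadjusted p = 0.0264 and a limma adjusted p = 0.795. It was 0.67 without the 3 cells of high mitochondrial share, and 0.35 where linear values were averaged in place of log2 values.

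The other 5 members differed less steadily. Tap1 was 0.77 ± 0.43 higher in ISG-high cells, with 1.84 in ISG-high and 1.95 in ISG-low cells of March, and 3.08 in ISG-high and 1.45 in ISG-low cells of April. Its April value came mostly from the run Apr13, where the difference was 2.78, against 0.45 in Apr21. H2-K1 differed by 0.45 ± 0.38 (1.002 in March, -0.11 in April), Tap2 by 0.32 ± 0.31, B2m by 0.21 ± 0.27 and Tapbp by -0.12 ± 0.47 (0.33 in March, -0.58 in April). None of the 5 had an unadjusted p under 0.05, and limma's adjusted p was between 0.821 and 0.983.

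**Figure D4:**
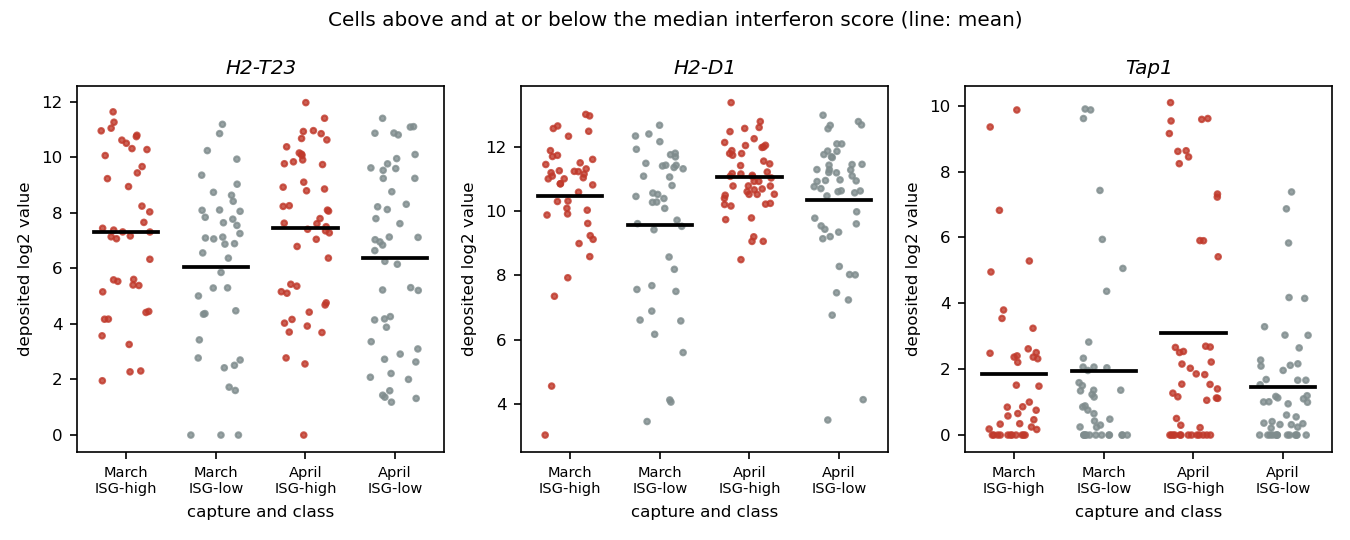
Deposited log2 values (vertical axis) of H2-T23, H2-D1 and Tap1 in single cells by capture and class (horizontal axis, ISG-high left of ISG-low), 1 point per cell and a line at the class mean. The H2-T23 line is higher in ISG-high cells by 1.25 in March and 1.08 in April, the point clouds overlap, and the Tap1 lines part in April only.

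The test called no gene. Of 10743 genes outside the score 0 passed at an adjusted p of 0.05 in limma (percent called 0), 627 had an unadjusted p under 0.05 (5.84%, with 4.03% above 0 and 1.81% below), and no adjusted p was below 0.288. Of the 7 members 0 passed and 2 had an unadjusted p under 0.05. The difference was above 0 for 6 of 7 members, against 61.4% of all genes, and above 0 in both captures for 4 of 7, against 34.2%. The median difference over the members was 0.45 (0.38 in March, 0.58 in April), and over all tested genes it was 0.07. In simulated data for this comparison, cells were assigned at random, once per shift, to classes of the same sizes. In 200 of 10795 genes the shift was added to every cell of 1 class, zeros included. The recovered share was 0% for a shift of 1, 86% for a shift of 2 and 99% for a shift of 3. Differences of about 1 may thus go undetected at this size of study. Random classes do not carry the differences in genes detected and mitochondrial share between the real ones.

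Of 24 other genes of the class I route 20 were above 0, against 61.4% of all genes, with a median of 0.32, and 0 passed. The 9 reference genes, among them Actb, Gapdh and Cd3e, gave 7 above 0 and a median of 0.33. Of the 24 genes 2 had an unadjusted p under 0.05. Psmb8, an immunoproteasome subunit, averaged 5.70 in ISG-high and 5.16 in ISG-low cells of March and 6.72 in ISG-high and 5.002 in ISG-low cells of April (1.13 ± 0.49, limma adjusted p = 0.795). Erap1, the peptidase that trims peptides for class I, differed by 0.71 ± 0.31. The 2 lowest by p in the other direction were H2-Q1 (-0.16 ± 0.13) and H2-M3 (-0.23 ± 0.34). Of 20 regulators 14 were above 0 and 0 passed. Stat2 (0.82 ± 0.28) and Jak1 (1.20 ± 0.45), which act in the type I interferon signal below the receptor, were among those with an unadjusted p under 0.05. Creb1 (-0.15 ± 0.33) and Nfya (-0.05 ± 0.26) had the smallest p below 0. Nlrc5 differed by 0.23 ± 0.41. All 13 interferon-inducible GTPases were above 0, with a median of 0.73. Over all genes outside the score, the smallest p above 0 belonged to Polb (2.01 ± 0.37), a DNA repair polymerase, and Gvin1 (1.65 ± 0.36), one of these 13 GTPases. Below 0 it belonged to Trbj2-4 (-1.69 ± 0.37), a T cell receptor joining segment, and Use1 (-1.78 ± 0.44), a vesicle fusion protein.

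ISG-high and ISG-low cells differed in other ways as well. Median genes detected was 5410 in ISG-high and 5217 in ISG-low cells of March, and 5005.5 in ISG-high and 4886.5 in ISG-low cells of April. The median mitochondrial share was 7.27% in ISG-high and 8.38% in ISG-low cells. For B cell markers, 3 of 8 in the table, the median summed linear level was between 5.60 and 163 in ISG-high and between 4.19 and 6.12 in ISG-low cells of the 4 runs. The 163 was in Apr21, and the next highest was 7.64, in Mar1. All 3 markers had a difference above 0, against 61.4% of all genes. For markers of class II presenting cells, 4 of 7 in the table, the median summed level was between 0.696 and 6.05 in ISG-high and between 0.552 and 7.001 in ISG-low cells, and for myeloid markers, 3 of 10, between 2.04 and 5.95 in ISG-high and between 1.03 and 5.07 in ISG-low cells. Of these class II and myeloid markers, 1 of 3 tested in each list had a difference above 0. The part of these differences in the members' values was not tested. A score built from the 13 GTPases in place of the 52 genes gave a difference of 0.0047 for H2-T23, 0.45 for H2-D1, 0.99 for H2-K1 and 0.65 for B2m, so which member leads changed with the choice of interferon genes.

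Klf2, the transcription factor in the title of the series, was used for a second split. It keeps resting T cells in circulation through lymphoid organs. Klf2-positive cells had a value above 0 (43 in March, 46 in April) and Klf2-negative cells had 0 (39 in March, 50 in April). No member passed the test between these classes. Differences were 0.13 ± 0.21 for B2m, -0.01 ± 0.31 for H2-K1, -0.11 ± 0.30 for H2-D1, -0.27 ± 0.49 for H2-T23, 0.15 ± 0.39 for Tap1, 0.18 ± 0.31 for Tap2 and 0.24 ± 0.49 for Tapbp (SE, n = 2 captures), with limma adjusted p between 0.982 and 0.998. H2-T23 averaged 6.97 in Klf2-positive and 6.37 in Klf2-negative cells of March, and 6.32 in Klf2-positive and 7.47 in Klf2-negative cells of April, which are opposite directions. The 95% intervals of the 7 members reach down to -1.27, for H2-T23, and up to 1.24, for Tapbp. Simulated data for this comparison were made in the same way, with 200 of 10795 genes shifted and 1 random assignment per shift. The recovered share was 11.5% for a shift of 1, 89.5% for a shift of 2 and 100% for a shift of 3.

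Of 10794 genes other than Klf2, 0 passed in limma (percent called 0), and 698 had an unadjusted p under 0.05 (6.47%, with 2.61% above 0 and 3.85% below). Of the 7 members 0 had one. B2m and Tap2 were above 0 in both captures, 2 of 7 against 22.2% of all genes, and 4 of 7 were above 0 overall against 45.4%. The median over the members was 0.13 (0.38 in March, -0.13 in April) and over all genes -0.03. Of the 24 other genes of the route 9 were above 0. H2-T10, a nonclassical heavy chain, was at 0.70 ± 0.29 and Psme1, a proteasome activator subunit, at 0.82 ± 0.47. Calr and Pdia3, which help heavy chains to fold in the endoplasmic reticulum, were at -0.99 ± 0.45 and -1.07 ± 0.49. H2-T10, Calr and Pdia3 had an unadjusted p under 0.05, and limma's adjusted p was 0.657 for H2-T10 and 0.715 for Calr and Pdia3. Pdia3 averaged 5.79 in Klf2-positive and 6.47 in Klf2-negative cells of March, and 5.28 in Klf2-positive and 6.75 in Klf2-negative cells of April. Of 20 regulators 10 were above 0, with Stat2 at 0.53 ± 0.28 and Nlrc5 at 0.65 ± 0.43, and with Nfyc at -0.74 ± 0.37 and Irf1 at -0.60 ± 0.44. Over all genes other than Klf2, the smallest p above 0 belonged to Fen1 (0.85 ± 0.24), a DNA replication nuclease, and Nme2 (1.74 ± 0.49), a nucleoside diphosphate kinase. Below 0 it belonged to Bcl2a1b (-1.87 ± 0.45), a survival gene of the Bcl2 family, and Trac (-1.20 ± 0.31), the T cell receptor alpha constant region and a CD4 T cell marker on the list.

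**Figure D5:**
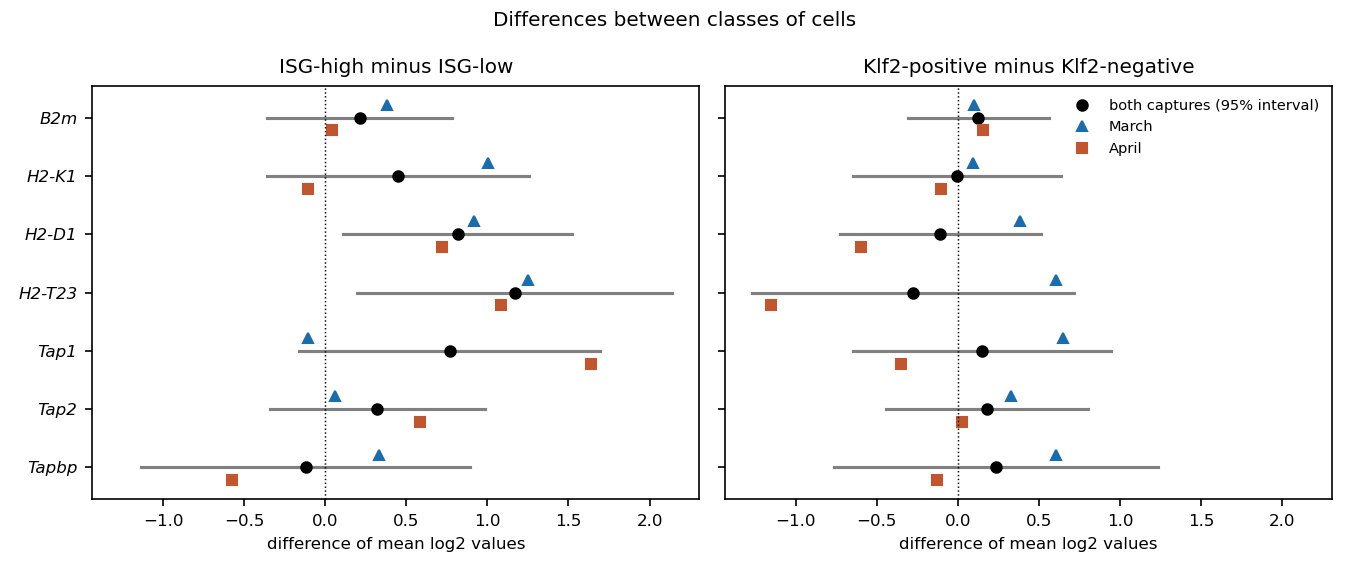
Difference of mean log2 values (horizontal axis) for each member (vertical axis), ISG-high minus ISG-low (left) and Klf2-positive minus Klf2-negative (right), with the fitted value and 95% interval as a circle and bar, March as a triangle and April as a square. Only H2-T23 and H2-D1 in the left panel have intervals above 0, at unadjusted p, and every interval in the right panel spans 0.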

How the data were processed

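The authors deposited 1 table of log2 values, 12432 genes by 178 single cells. Per the submitters' processing notes the build was mm10. How reads were aligned, counted and assigned to strands is not given in the sources used here. Of the Ensembl IDs, 12163 matched a symbol and 269 did not. All columns were mapped to a capture (0 unmapped), and runs within a capture count as 1 replicate. No cell was removed, no doublet caller was run, and no 2 cells held identical values.

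Means of log2 values per capture and class made 4 pseudobulk libraries. They were tested two-sided with limma 3.58.1 in R 4.3.3, with a mean-variance trend, the capture as replicate block and Benjamini-Hochberg adjustment at 0.05, over all genes with a value above 0 in 10% of cells or more. That leaves 1 residual degree of freedom per gene, and limma borrows the rest from other genes. A difference is one of mean log2 values, zeros included, and is no fold change. The block pairs the classes of a capture by construction, since both come from the same cell pool. Rank correlations used SciPy 1.17.1, with numpy 2.4.6 and Python 3.11.15, over cells within a capture or run.

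All 7 members were named. From the other lists of the route and its regulators, genes were named if they passed, otherwise those with the smallest p, up to 2 per direction (Jak1, and Nlrc5 beside it, were added after their values were seen, as were the ranks of the proteasome genes, Nlrc5 and Irf1). Likeness lists took the 5 highest genes for the class I score and the 3 highest for B2m, H2-K1 and H2-D1. Members, lists and alternatives were chosen with earlier results of these data known. Genes outside the deposited table were not analysed here, among them 3 of 27 genes on the route list and 1 of 24 regulators. Values of 1 further regulator are not reported here.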

Additional observations from a re-analysis of the deposited data

How the results depend on the processing

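No member passed in limma under any alternative, so the directions below are of values that did not pass. Without the replicate block 0 genes passed in either comparison. A count of genes could not be fitted without a capture, since no residual degree of freedom is left. Without a filter on detection 1 gene passed for ISG-high against ISG-low cells; the cause was not tested. The median difference of the members there was 0.27 with a split at the median of each run and 0.66 for the highest against the lowest scores with the middle ones left out, and 0.38 to 0.58 with a capture left out. The median rho with the score was 0.0814 as a mean over 4 runs (0.0946 to 0.155 with a capture left out), and that between pairs was -0.03 to 0.09. The median level was 8.92 where linear values were averaged.

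Directions turned as follows, each cause not tested. For ISG-high against ISG-low cells, leaving out a capture gave H2-K1 -0.11 to 1.002, Tap1 -0.10 to 1.64 and Tapbp -0.58 to 0.33. Tapbp was 0.087 with linear averages and 0.30 with the GTPase score. For Klf2-positive against Klf2-negative cells it gave Tap1 -0.35 to 0.65, Tapbp -0.13 to 0.60, H2-K1 -0.11 to 0.094, H2-D1 -0.60 to 0.38 and H2-T23 -1.15 to 0.60. With Klf2-positive cells defined by a linear value of 1 or more, H2-K1 was 0.54, H2-D1 0.25, Tap1 -0.13, Tap2 -0.14 and Tapbp -0.63. H2-K1 was 0.032 with a pseudocount of 10, 0.24 with linear averages and 0.0046 with quantile normalization. Tap2 was -0.46 with linear averages and -0.046 with 4 runs as replicate blocks. Without the run Mar1, an alternative chosen after seeing the data, B2m was -0.0080, H2-K1 0.11 and H2-D1 0.0069. The fixed total per cell leaves depth unknown, and 2 captures limit every test.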
